A study of Mus musculus with 6 samples.

Results

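The CD47 axis was examined as 7 genes of the deposited expression table, chosen by name: Cd47, its receptor gene Sirpa, the glutaminyl cyclase genes Qpct and Qpctl, the ligand gene Thbs1, the engulfment receptor gene Lrp1 and the separate inhibitory signal Cd24a. All 7 were among the 17030 genes of the table, and 4 of them (Cd47, Qpctl, Thbs1 and Lrp1) reached at least 1 FPKM (the fragment number divided by transcript length and library total) in at least 3 libraries and were tested. The cells were SCC7, a mouse squamous cell carcinoma line grown in culture. Control cells received no treatment (n = 3), and irradiated cells had received radiotherapy at 9 Gy (n = 3); every sample carried the time label day 0, so the interval from irradiation to harvest is not stated. Whether samples of 1 group were separate cultures is not stated in the labels, and the p-values therefore reflect only the spread among these samples, possibly technical.

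CD47 is a surface protein that tells phagocytes not to engulf the cell that carries it. It does so by binding SIRPα on macrophages and dendritic cells, whose cytoplasmic tail then recruits the phosphatases SHP-1 and SHP-2. The binding surface of CD47 includes a pyroglutamate at its amino terminus, which the Golgi enzyme QPCTL makes, while its relative QPCT is secreted. Thrombospondin-1, encoded by Thbs1, is a secreted ligand of CD47. LRP1 is a large endocytic receptor that binds calreticulin, the opposing signal that promotes engulfment, and CD24 is a second inhibitory signal, read by Siglec-10 in humans and Siglec-G in mice. The title of the study names blockade of CD47 together with radiotherapy, and the comparison asks how the transcripts of this axis differ between irradiated and untreated tumour cells.

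The identity of the line was checked against marker genes. Of 12 squamous epithelial markers, Krt8, Krt18 and Cd44 were the most abundant. Krt8, a keratin of simple epithelia, measured 1249.43, 1361.49 and 486.7 FPKM in controls and 371.16, 392.77 and 390.82 FPKM in irradiated libraries, without overlap (log2 fold change -1.29, limma adjusted p = 0.0686). Its partner Krt18 measured 464.75, 528.15 and 211.5 FPKM in controls and 112.51, 102.79 and 100.26 FPKM in irradiated libraries and was called lower (-1.82, adjusted p = 0.0261; leaving out control 1 or 2 gave 0.125 and 0.0561, and leaving out irradiated library 1, 2 or 3 gave 0.153, 0.173 and 0.148). The list summed to 852 to 2129 FPKM in controls and 665 to 671 FPKM in irradiated cells, and of its 5 tested members 1 was called lower and none higher, with a median of -0.44. Cd44 was at 129 to 216 FPKM, whereas Krt5, Krt14, Epcam and Cdh1 were at or below 0.49 FPKM in every library and Trp63 reached 1.1 FPKM only in control 3. Of 10 macrophage markers in the table, the defining genes Adgre1, Csf1r and Itgam were at or below 0.06 FPKM in every library, and Ptprc, which marks leukocytes, was at or below 0.03 FPKM. The summed level of the macrophage list was 17.9 to 22.9 FPKM in controls and 29.5 to 30.4 FPKM in irradiated cells. Most of it was Cd14, at 13.5 to 18.7 and 19.2 to 21.6 FPKM, and 1 member, Lyz2, was called higher (log2 fold change 1.41, limma adjusted p = 0.00745; 0.0591 without control 1, and below the level for testing without any 1 irradiated library). The fibroblast list summed to 146 to 258 FPKM in controls and 205 to 228 FPKM in irradiated cells. Its median log2 fold change was 0.17, the same as for all genes, and Col3a1 had -0.37 (limma adjusted p = 0.122). Of 7 tested members, none was called lower and 2 were called higher (2.77% and 9.24% of all genes). These were Col1a1 (adjusted p = 0.00474; 0.0562 and 0.0619 without irradiated library 1 or 2) and Dcn (0.0086; 0.065 without control 1 and 0.0531, 0.0544 and 0.0712 without irradiated library 1, 2 or 3). The lymphocyte and endothelial lists summed to at most 1.53 and 0.66 FPKM in any library, and no member reached the level for testing. The part of these transcripts in the results below was not tested. Control 3 stood apart from controls 1 and 2 (the FPKM sum was 693961, against 878514 and 982553, and 652691 to 663489 in irradiated libraries), so results that rest on it are given with and without it.

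The promoter of Cd47 is shown because Cd47 was the member whose transcript was called higher, and that of Lrp1 because it is the other member with an entry in the RefSeq promoter table of build GRCm38.p6 (2 of 7 members). Each sequence gives the 250 bases before an annotated start, 5′ to 3′ on the strand of the gene. The Cd47 window lies inside the annotated span of the gene (49851328 to 49912503), so it precedes a start within that span. The Lrp1 window adjoins the end of its gene span (127621148). Capitals mark matches on either strand to short motifs: the NRF1 core GCGCANGCGC, the Sp1 box GGGCGG and the hypoxia response core (ACGTG or GCGTG).
Cd47, chr16:49855404-49855653, plus strand: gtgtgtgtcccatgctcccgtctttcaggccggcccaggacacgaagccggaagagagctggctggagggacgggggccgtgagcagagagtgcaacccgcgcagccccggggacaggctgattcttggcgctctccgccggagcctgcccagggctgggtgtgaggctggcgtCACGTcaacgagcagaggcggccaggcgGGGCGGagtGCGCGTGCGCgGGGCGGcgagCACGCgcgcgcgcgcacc
Lrp1, chr10:127621149-127621398, minus strand: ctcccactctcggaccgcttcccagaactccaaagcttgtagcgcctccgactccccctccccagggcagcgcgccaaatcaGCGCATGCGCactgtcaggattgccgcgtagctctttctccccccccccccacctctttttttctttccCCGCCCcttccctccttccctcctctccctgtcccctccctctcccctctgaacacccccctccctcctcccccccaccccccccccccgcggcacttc
Both promoters held 1 match to the NRF1 core, which was found in 3.74% of the 32851 promoter windows of the same length. It began 39 bases before the start in Cd47 and 168 bases before it in Lrp1. The Cd47 window also held 2 Sp1 boxes (a motif found in 32.7% of windows) and 3 hypoxia response cores (38.6% of windows), 1 of which lies within the NRF1 match. The Lrp1 window held 1 Sp1 box. Neither window held an E-box (CACGTG, 6.02% of windows), an interferon-stimulated response element core (GAAANNGAAA, 2.98%) or the NF-kB core GGGANTTCC (1.43%). The Cd47 window had a GC content of 73.2% and the Lrp1 window 67.2%, against a median of 52.4% over all windows. These matches describe letters in the windows, and binding of a factor was not measured.

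Cd47 transcripts were about 1.4 times as abundant in irradiated cells, and the libraries within each group were nearly alike. Cd47 (NCBI gene 16423, chromosome 16, 49851328 to 49912503) measured 45.57, 44.86 and 45.21 FPKM in controls 1 to 3 and 66.28, 63.53 and 64.46 FPKM in irradiated libraries 1 to 3. The lowest irradiated library was above the highest control. The means were 45.2 ± 0.355 and 64.8 ± 1.40 FPKM (SD, n = 3 each), a fold of 1.43, and the log2 fold change on the log2(FPKM + 1) scale was 0.51 (95% interval 0.25 to 0.76, limma adjusted p = 0.0343). In bulk RNA, a change in the share of cells that carry a transcript and a change in its amount per cell cannot be told apart. Among 11103 genes tested, 12.0% were called (9.24% higher and 2.77% lower), and the groups did not overlap for 45.4% (31.8% higher and 13.7% lower), so neither property is rare in this comparison.

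The steadiness of Cd47 across the controls was uncommon. Its SD over the 3 controls was 0.011 on the log2 scale, against a median of 0.30 for all genes tested, and 0.288% of genes had an SD as small or smaller. Control 3 and the mean of controls 1 and 2 differed by 0.00 on the log2 scale for Cd47. Ranked within each library among the genes tested, Cd47 stood at the percentiles 79.5, 79.7 and 79.9 in controls 1 to 3 and 87.0, 86.3 and 86.4 in irradiated libraries 1 to 3. A factor common to all genes of a library leaves this rank as it is, whereas a trend with transcript length can move it. The groups did not overlap on this rank for Cd47. The share of all genes without overlap on their ranks was not computed.

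The call for Cd47 depended on the scaling and on which libraries were included. It was lost after trimmed-mean scaling (log2 fold change 0.31, limma adjusted p = 0.124), which moved the median of all genes from 0.17 to -0.01, and after correction of the libraries for trends with the length and GC content of transcripts (0.23, adjusted p = 0.294). Leaving out control 1, control 2 or irradiated library 1, 2 or 3 also ended it, at adjusted p of 0.134, 0.0592, 0.205, 0.201 and 0.168, while the log2 fold change stayed between 0.49 and 0.52. In the same fits 1.63%, 4.96%, 0.516%, 0.599% and 0.911% of all genes were called, against 12.0% in the reported fit. The call held without control 3 (limma adjusted p = 0.00131), where 69.1% of all genes were called. With control 3 as the only control the log2 fold change was 0.51.

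**Figure D1:**
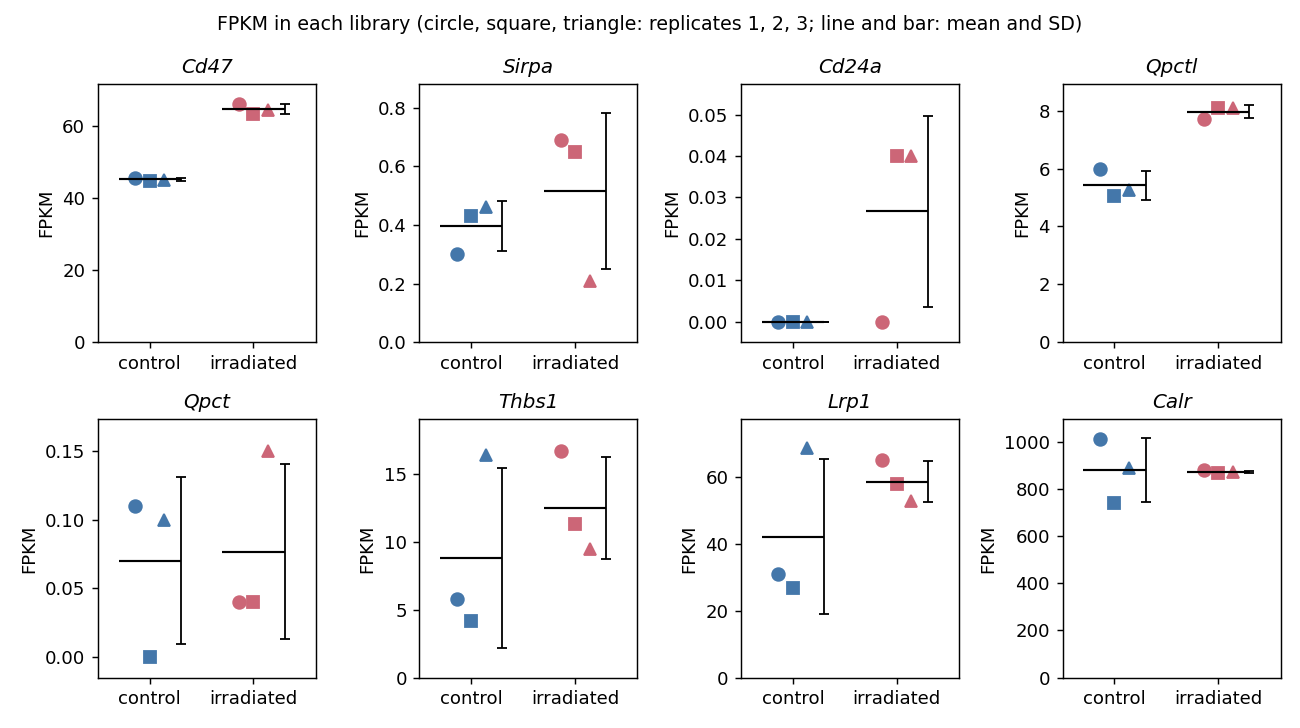
FPKM of the 7 members and of Calr in each control (blue) and irradiated (red) library, with a circle, square or triangle for replicate 1, 2 or 3, a line for the mean and a bar for the SD; each panel has its own FPKM axis. Cd47 and Qpctl do not overlap between the groups, while control 3 lies with the irradiated libraries for Thbs1 and Lrp1.

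The receptor of CD47 was scarcely detected in these cells. Sirpa (NCBI gene 19261, chromosome 2, 129591042 to 129632228), which encodes SIRPα, measured 0.30, 0.43 and 0.46 FPKM in controls and 0.69, 0.65 and 0.21 FPKM in irradiated libraries. The groups overlapped, since irradiated library 3 was the lowest of all 6, and the gene stayed below the level required for testing. Its mean in controls was 0.397 ± 0.085 FPKM, against 45.2 FPKM for Cd47 on the same per-length scale. Among the phosphatases that act behind SIRPα, Ptpn6 (SHP-1) was at 4.33 to 4.71 FPKM in controls and 5.31 to 5.74 FPKM in irradiated cells (log2 fold change 0.25, limma adjusted p = 0.179), and Ptpn11 (SHP-2) was at 17.5 to 28.9 and 28.6 to 29.6 FPKM (0.39, adjusted p = 0.173).

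The second inhibitory signal, Cd24a, was at the bottom of the scale. Cd24a (NCBI gene 12484, chromosome 10, 43579169 to 43584265) was listed at 0 in all 3 controls and in irradiated library 1 and at 0.04 FPKM in irradiated libraries 2 and 3. No fold is given for it. Siglecg, which encodes the mouse receptor of CD24, was by contrast at 11.04, 13.37 and 17.19 FPKM in controls and 18.28, 22.43 and 14.63 FPKM in irradiated libraries. These groups overlapped and the difference did not pass (0.39, adjusted p = 0.217). Siglecg was singled out after its values were seen.

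Of the enzymes that form the amino-terminal pyroglutamate, the Golgi form was the one transcribed at a measurable level. Qpctl (NCBI gene 67369, chromosome 7, 19140217 to 19149196) measured 5.98, 5.04 and 5.25 FPKM in controls and 7.71, 8.10 and 8.08 FPKM in irradiated libraries, with no overlap. Its means were 5.42 ± 0.493 and 7.96 ± 0.220 FPKM (SD, n = 3 each), a fold of 1.47, close in size to that of Cd47. The log2 fold change of 0.48 (95% interval 0.18 to 0.79) just missed the threshold (limma adjusted p = 0.0532). It passed without the trend and robust options (limma adjusted p = 0.0467) and without control 3 (0.00546). It also passed after the length and GC correction (0.55, adjusted p = 0.0249). In these fits 13.8%, 69.1% and 16.8% of all genes were called. The log2 fold change fell to 0.11 after quantile normalization (0.603) and 0.31 after trimmed-mean scaling (0.128). Leaving out control 1 or 2 gave limma adjusted p of 0.137 and 0.102. Leaving out irradiated library 1, 2 or 3 gave 0.219, 0.222 and 0.197. Ranked within libraries, Qpctl stood at the percentiles 31.9, 30.2 and 23.4 in controls and 29.4, 30.9 and 31.4 in irradiated libraries. On this rank the groups overlapped, unlike those of Cd47.

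The secreted form was near 0. Qpct (NCBI gene 70536, chromosome 17, 79051906 to 79090378) measured 0.11, 0 and 0.10 FPKM in controls and 0.04, 0.04 and 0.15 FPKM in irradiated libraries, and it was not tested. The within-library ratio of Qpctl to Qpct, as a difference of log2(FPKM + 1), was 2.65, 2.59 and 2.51 in controls and 3.07, 3.13 and 2.98 in irradiated libraries. The groups did not overlap, and the difference of 0.47 had an exact two-sided permutation p of 0.10, the smallest that 3 against 3 samples allow (adjusted over 2 ratios, 0.10). With Qpct so close to 0, this ratio follows Qpctl.

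Thbs1 and Lrp1, the ligand and the endocytic receptor, shared a pattern in which control 3 resembled the irradiated libraries. Thbs1 (NCBI gene 21825, chromosome 2, 118111876 to 118127133) measured 5.80 and 4.18 FPKM in controls 1 and 2, 16.39 FPKM in control 3, and 16.65, 11.28 and 9.49 FPKM in irradiated libraries 1 to 3. Control 3 was above irradiated libraries 2 and 3, so the groups overlapped. The means were 8.79 ± 6.63 and 12.5 ± 3.73 FPKM (SD, n = 3 each), and the log2 fold change of 0.63 did not pass (95% interval -0.46 to 1.72, limma adjusted p = 0.325).

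Lrp1 (NCBI gene 16971, chromosome 10, 127538157 to 127621148) measured 30.90 and 26.86 FPKM in controls 1 and 2, 68.54 FPKM in control 3, and 64.87, 57.79 and 52.72 FPKM in irradiated libraries 1 to 3. Control 3 was the highest of all 6. The means were 42.1 ± 23.0 and 58.5 ± 6.10 FPKM, and the log2 fold change of 0.58 did not pass (95% interval -0.23 to 1.39, adjusted p = 0.235). Control 3 stood 2.37-fold above the mean of the other two controls for Lrp1 and 3.28-fold for Thbs1. On the log2 scale these gaps were 1.22 and 1.55, and 94.9% and 97.6% of the genes tested had gaps that were no higher.

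Both directions depended on control 3. Without control 3, Thbs1 and Lrp1 were called higher (log2 fold change 1.15, limma adjusted p = 0.00186, and 0.99, adjusted p = 0.00021), although 69.1% of all genes were then called. With control 3 as the only control, both values turned negative (-0.40, adjusted p = 0.395, and -0.23, adjusted p = 0.145), and the spread then came from the irradiated libraries alone. Without control 2 the log2 fold changes were 0.27 and 0.33.

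Transcript length moved with the gap between the controls. Across the tested genes divided into 10 bins by transcript length, the median difference between control 3 and the mean of controls 1 and 2 went from -0.57 in the shortest bin to 0.53 in the longest, and the median log2 fold change went from -0.36 to 0.53. Lrp1, with an annotated transcript of 14888 bases, fell in the longest bin, where its 0.58 was close to the median of 0.53. Thbs1 (5848 bases) and Cd47 (5250 bases) fell in bin 9, with a median log2 fold change of 0.40 and a median control gap of 0.49. Cd47 had 0.51 and 0.00 for the same quantities, and Thbs1 had 0.63 and 1.55. Qpctl (2710 bases) was in bin 5, whose median log2 fold change was 0.14. Besides the loss of the Cd47 call, the length and GC correction gave 0.33 for Lrp1 and 0.40 for Thbs1.

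**Figure D2:**
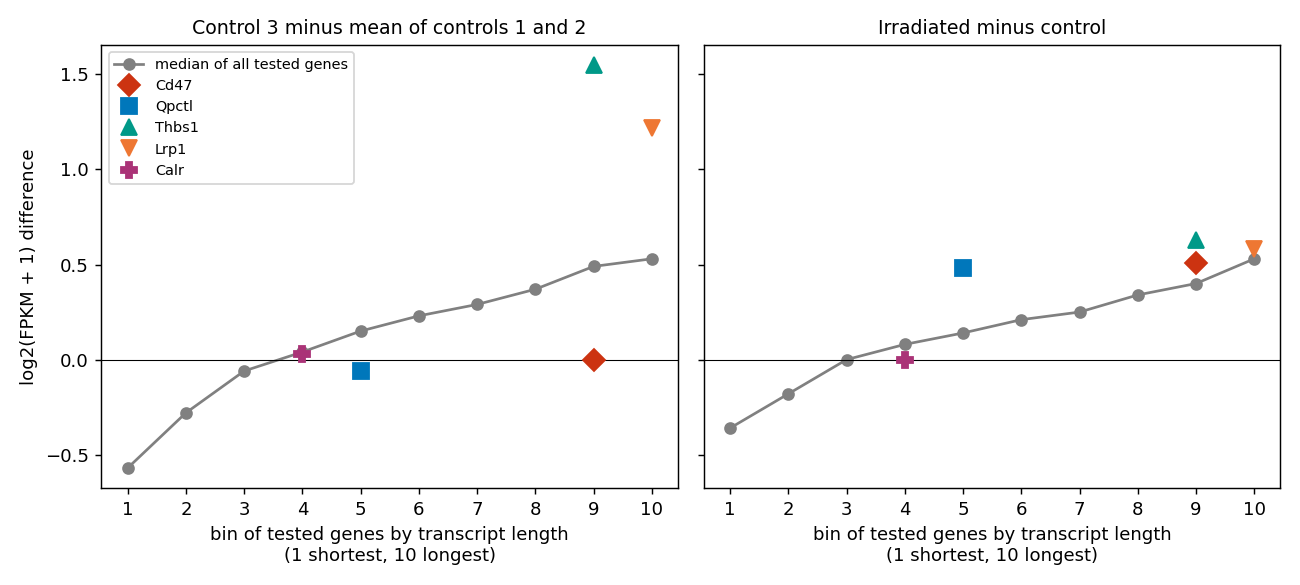
Median difference in log2(FPKM + 1) over all tested genes (grey) in each of 10 bins by transcript length, for control 3 against the mean of controls 1 and 2 (left) and for irradiated against control cells (right), with the 4 tested members and Calr as coloured symbols. On the left, Thbs1 (1.55) and Lrp1 (1.22) lie far above the grey line, and Cd47 (0.00) lies below the bin 9 median of 0.49. On the right, Thbs1 (0.63) and Cd47 (0.51) lie above the bin 9 median of 0.40, Cd47 nearer to it. There Lrp1 (0.58) lies close to the bin 10 median of 0.53.

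In order of level on the per-length scale, the control cells had Cd47 (45.2 FPKM) and Lrp1 (42.1 FPKM) at the top, Thbs1 (8.79 FPKM) and Qpctl (5.42 FPKM) in the middle, and Sirpa (0.397 FPKM), Qpct (0.07 FPKM) and Cd24a (listed at 0) at the bottom. Cd47 and Lrp1 did not differ beyond the spread of Lrp1, nor did Thbs1 and Qpctl beyond that of Thbs1. In irradiated cells the order of the first 4 was the same, with Cd47 at 63.5 to 66.3 FPKM overlapping Lrp1 at 52.7 to 64.9 FPKM, and Thbs1 at 9.49 to 16.65 FPKM above Qpctl at 7.71 to 8.10 FPKM. Of the 4 members tested, 1 was called (12.0% of all genes were). Their median was 0.55 on the log2 scale, where that of all genes was 0.17. Cd47 and Thbs1 were in length bin 9 and Lrp1 in bin 10, where the medians of all genes were 0.40 and 0.53. With control 3 as the only control, Thbs1 and Lrp1 had -0.40 and -0.23.

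**Figure D3:**
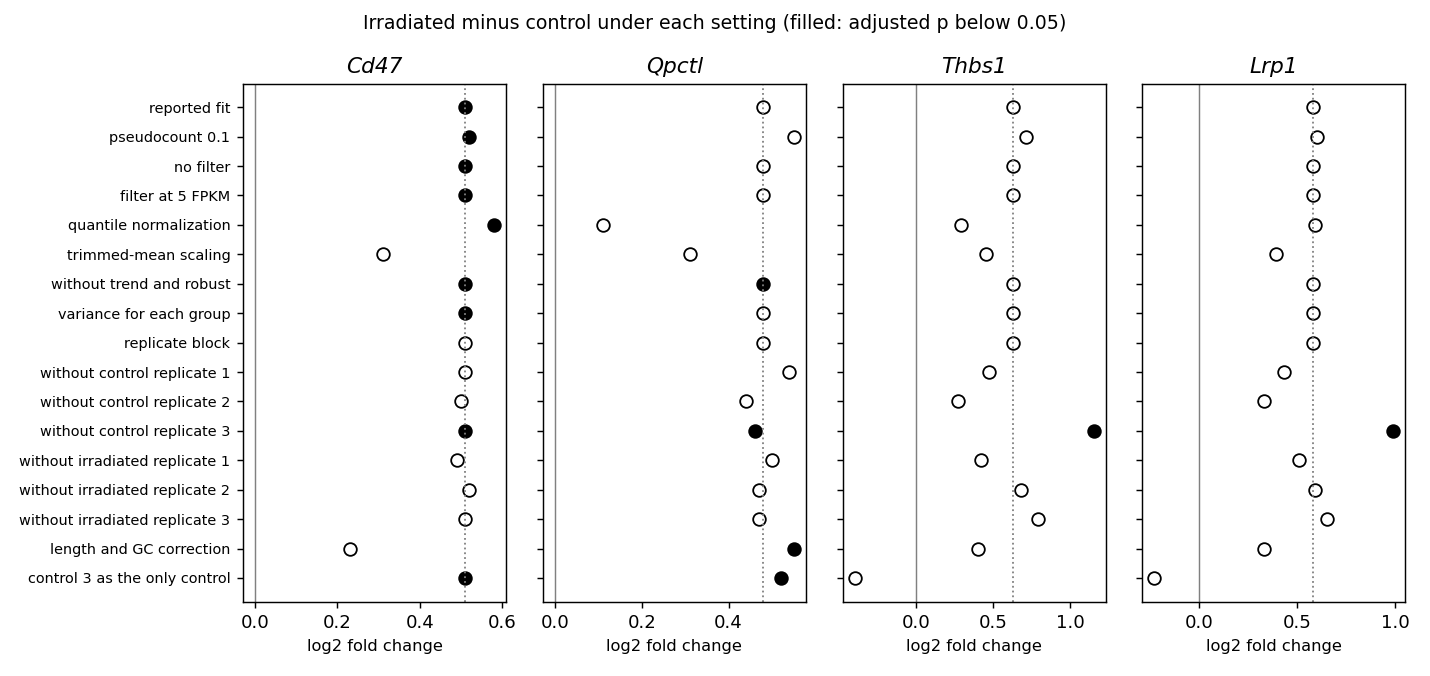
Log2 fold change (irradiated minus control) of the 4 tested members in the reported fit and under each alternative, with filled points where the limma adjusted p was below 0.05 and a dotted line at the reported value; each panel has its own axis. The value of Cd47 stays near 0.51 whichever library is left out, whereas those of Thbs1 and Lrp1 rise to 1.15 and 0.99 without control 3 and turn negative with control 3 as the only control.

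Cd47 was set against Calr, which encodes calreticulin, the signal that opposes CD47. Calr measured 1012.56, 740.85 and 886.42 FPKM in controls and 877.78, 868.67 and 869.94 FPKM in irradiated libraries. The irradiated libraries lay within the range of the controls (log2 fold change 0.00, 95% interval -0.40 to 0.39, limma adjusted p = 0.995). The within-library log2 ratio of Cd47 to Calr was -4.44, -4.02 and -4.26 in controls and -3.71, -3.75 and -3.73 in irradiated libraries. It was higher in 3 of 3 irradiated libraries than in any control, by 0.51 on average, with an exact two-sided permutation p of 0.10, the smallest possible here (adjusted over 2 ratios, 0.10). Leaving out 1 library at a time gave differences of 0.41 to 0.62. A factor common to all genes of a library cancels in this ratio, but corrections that differ between genes do not, and the difference was 0.10 after quantile normalization and 0.14 after the length and GC correction. The ratio compares transcripts, not the calreticulin exposed on the cell surface.

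The genes whose profile over the 6 libraries was nearest to that of Cd47 were Trip10, Zzef1, Zbtb42, Brd2 and Usp49. Nearness was the Euclidean distance between log2(FPKM + 1) profiles centred on the control mean, over 10709 named genes, and it was 0.061 to 0.097 for these 5. Trip10, which encodes a membrane-curving partner of CDC42, measured 37.97, 36.65 and 37.66 FPKM in controls and 52.93, 51.88 and 53.36 FPKM in irradiated libraries. Brd2, a bromodomain protein that reads acetylated histones, went from a mean of 76.0 to 106 FPKM. The ubiquitin protease gene Usp49 had means of 2.71 and 4.26 FPKM, Zzef1 5.77 and 8.73 FPKM, and Zbtb42 1.47 and 2.45 FPKM. Like Cd47, each had folds of 1.40 to 1.67 and no overlap between the groups. They were chosen for this likeness, so no test is given.

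Around the CD47 axis, 13 lists of genes of phagocytosis and of the members' partners were read from the same test. The lists were chosen with earlier results of these data known, so their shares of calls are no independent comparison with all genes. They held 149 genes, of which 133 were in the table and 99 were tested. Of these, 13 were called higher (13.1%, against 9.24% of all genes) and none lower by limma (2.77% of all genes were). At an unadjusted limma p below 0.05, 4 were lower, against 11.1% of all genes. The median of the 99 genes was 0.48 on the log2 scale, against 0.17 for all genes. Medians of all genes by transcript length went from -0.36 in the shortest bin to 0.53 in the longest. The genes called higher include Cd47 itself, and Cd274 and Fas, which entered the test only through the irradiated libraries. After the length and GC correction 20 of the list genes were called higher and 3 lower, against 12.5% of all genes called higher. Trimmed-mean scaling gave 9 higher (9.09%, against 6.05% of all genes) and 3 lower. Without control 1, 2 or 3 the genes called higher numbered 5, 9 and 63 (5.05%, 9.09% and 63.6%). Of all genes, 1.48%, 4.01% and 45.8% were called higher there. Without control 3, 11 of the list genes were called lower, and 69.1% of all genes were called. Without irradiated library 1, 2 or 3 those called higher numbered 3, 3 and 4 (3.12%, 3.12% and 4.17%), against 0.424%, 0.507% and 0.782% of all genes.

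Among surface signals that inhibit phagocytosis, 3 of 5 genes tested were called higher and none lower (9.24% and 2.77% of all genes). Cd47, already described, was 1 of the 3, and the others were B2m and Cd274. Cd274 reached 1 FPKM only in the irradiated libraries and entered the test through them. B2m, the light chain of MHC class I, which is also read by an inhibitory receptor on macrophages, measured 1404, 1031 and 2082 FPKM in controls and 4492, 4865 and 4154 FPKM in irradiated libraries (log2 fold change 1.64, limma adjusted p = 0.019). Cd274, which encodes PD-L1, measured 0.23, 0.26 and 0.48 FPKM in controls and 1.91, 2.28 and 1.56 FPKM in irradiated libraries (1.14, adjusted p = 0.00765). For both genes the groups did not overlap. The B2m call was lost without control 1 (0.105) and without irradiated library 1, 2 or 3 (0.146, 0.156 and 0.119), and that of Cd274 without control 1 (0.0591). Cd274 was below the level for testing without any 1 irradiated library. No gene of the 3 tested inhibitory receptors and phosphatases was called by limma, and 0 had an unadjusted p below 0.05.

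Of 9 tested signals that promote engulfment, 1 was called (12.0% of all genes were). This was the heat shock gene Hspa1b, from 23.1 ± 5.52 to 41.6 FPKM (0.85, adjusted p = 0.0397), and the list median was 0.12. Its reads can be assigned to the near-identical copy Hspa1a, listed at or below 0.13 FPKM, so the level of Hspa1b is uncertain. Pdia3, the partner of calreticulin in the endoplasmic reticulum, was at 486 to 561 FPKM in controls and 511 to 560 FPKM in irradiated cells. Of 10 tested genes of phosphatidylserine exposure, 1 was called (12.0% of all genes were). It was the scramblase-family gene Plscr3 (30.2 ± 3.94 to 47.8 FPKM, 0.65, limma adjusted p = 0.0354). The caspase-activated scramblase gene Xkr8 was at 1.08 to 1.35 FPKM in controls and 1.41 to 1.82 FPKM in irradiated cells, a difference that missed the threshold (adjusted p = 0.193). Both calls were lost without control 1 (0.103 for Hspa1b and 0.143 for Plscr3) and without irradiated library 1, 2 or 3 (0.191, 0.201 and 0.169 for Hspa1b; 0.202, 0.202 and 0.151 for Plscr3), and that of Plscr3 also without control 2 (0.0675). Trimmed-mean scaling ended both (0.0515 and 0.0561), and testing without a filter ended that of Hspa1b (0.0526).

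The bridging molecules, which link dying cells to phagocytes, held the largest log2 fold change among the tested genes of these lists. C3, the central complement component, measured 0.61, 0.93 and 1.14 FPKM in controls and 30.73, 42.45 and 32.99 FPKM in irradiated libraries, which is 4.26 on the log2 scale (limma adjusted p = 0.000223, SE 0.18) and was called under each of the 16 alternatives. It was the 1 called gene of 6 tested (12.0% of all genes were called). Mfge8, which bridges phosphatidylserine to integrins, was at 277 to 400 FPKM in controls and 209 to 228 FPKM in irradiated cells, without overlap, and just missed the threshold (-0.61, adjusted p = 0.0576). None of the 8 tested engulfment receptors, Lrp1 among them, and none of the 13 tested genes of the engulfment machinery was called by limma, with 4 of the receptors (3 higher, 1 lower) and 4 of the machinery genes (all higher) at an unadjusted p below 0.05. Of all genes tested, 38.3% had such a p (27.2% higher and 11.1% lower), so these shares were near the background. Of 10 genes that attract phagocytes, 2 were called higher and none lower (9.24% and 2.77% of all genes). Ccl2, a monocyte chemokine, measured 237, 190 and 192 FPKM in controls and 674, 722 and 656 FPKM in irradiated libraries (1.73, adjusted p = 0.002). Cx3cl1, fractalkine, went from 13.8 ± 1.38 to 25.8 FPKM (0.86, adjusted p = 0.0124), and its call was lost without control 1 (0.0544) and without irradiated library 1, 2 or 3 (0.138, 0.13 and 0.101).

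**Figure D4:**
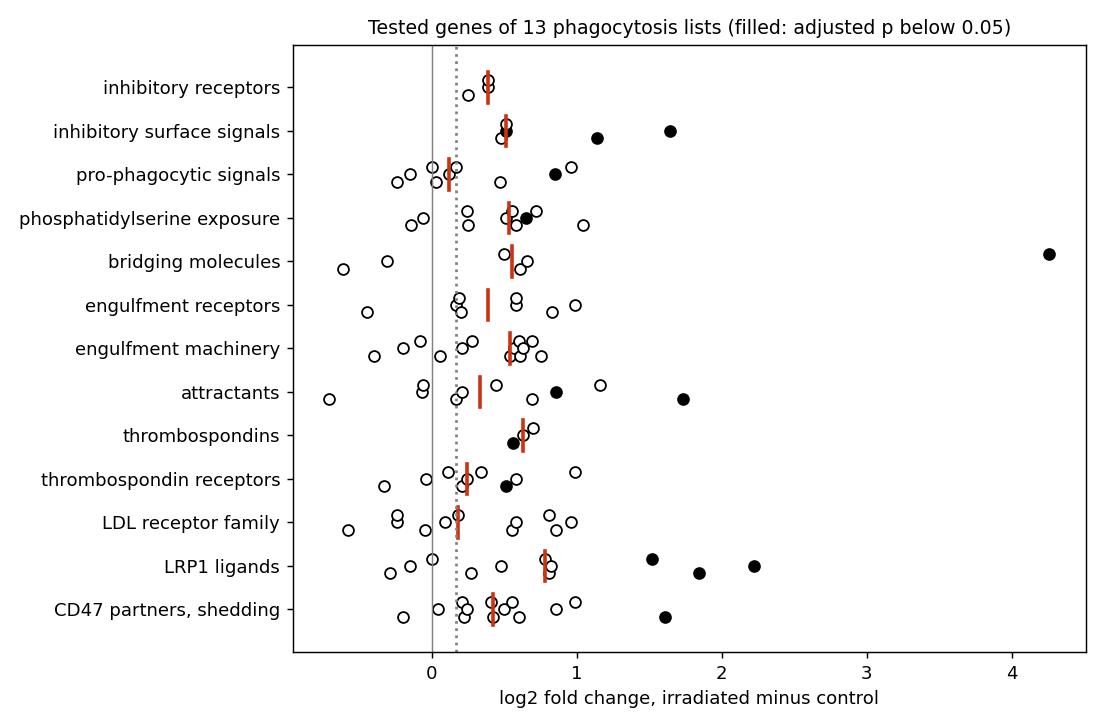
Log2 fold change (irradiated minus control) of each tested gene in 13 lists, with filled points where the limma adjusted p was below 0.05, a red bar for the median of the list and a dotted line for the median of all genes (0.17); a gene can stand in more than 1 list. C3, at 4.26 among the bridging molecules, lies farthest to the right, and no filled point lies to the left of 0.

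The lists of thrombospondins, of thrombospondin receptors and of the LDL receptor family held 22 tested genes, with Thbs1, Lrp1 and Cd47 themselves among them. Of these 22, 2 were called higher (9.09%, against 9.24% of all genes), which were Cd47, already described, and Thbs3. Thbs2 followed Thbs1, at 51.37 and 46.11 FPKM in controls 1 and 2, 174.2 FPKM in control 3 and 112 to 137 FPKM in irradiated cells (0.70, adjusted p = 0.307). Thbs3 was called (8.26, 7.67 and 9.19 FPKM against 12.27, 13.63 and 12.55 FPKM, 0.56, adjusted p = 0.0403), and the call was lost when control 1 or 2 was left out (0.151 and 0.0785), when irradiated library 1, 2 or 3 was (0.202, 0.209 and 0.17) with a variance for each group (0.0568), and after quantile normalization (0.132) or trimmed-mean scaling (0.0697). Of 9 thrombospondin receptors and partners tested, Cd47 was the 1 called (12.0% of all genes were called). The other thrombospondin receptor gene Cd36 was at or below 0.11 FPKM and the integrin gene Itgb3 at or below 0.02 FPKM in every library. Of 11 genes of the LDL receptor family and its chaperones none was called by limma, with 3 higher and 1 lower at an unadjusted p below 0.05 (38.3% of all genes), and the median of 0.18 was close to that of all genes. Lrpap1, the chaperone of LRP1, was at 24.5 to 26.2 FPKM in controls and 21.0 to 22.4 FPKM in irradiated cells (-0.24, adjusted p = 0.163).

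Of 11 tested ligands and interactors of LRP1, 3 were called higher and none lower (9.24% and 2.77% of all genes). The matrix protease gene Mmp9 measured 4.40, 4.20 and 3.54 FPKM in controls and 22.29, 21.24 and 23.67 FPKM in irradiated libraries (2.22, adjusted p = 0.000526). Plat, the tissue plasminogen activator, was also called (6.18, 3.33 and 10.76 FPKM against 19.07, 22.30 and 17.46 FPKM, 1.52, adjusted p = 0.0407). It was named after its values were seen, and its call was lost when control 1 or 2 was left out (0.153 and 0.0551) and when irradiated library 1, 2 or 3 was (0.191, 0.202 and 0.164), and in the test without a filter (0.0576). Among 13 tested partners of CD47 and factors of its traffic or shedding, 1 was called (12.0% of all genes were). This was the death receptor gene Fas (0.05, 0.41 and 0.40 FPKM against 3.04, 2.76 and 2.89 FPKM, 1.61, limma adjusted p = 0.00288). Fas reached 1 FPKM only in the irradiated libraries and was below the level for testing without any 1 of them. The sheddase genes Adam10 and Adam17 were not called (0.42, adjusted p = 0.209, and 0.55, adjusted p = 0.20).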

How the data were processed

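RNA sequencing values of 6 SCC7 samples (3 control, 3 irradiated) were read from 1 table. The authors deposited FPKM per gene, rounded to 2 decimals, per the file headers; the submitters' processing notes name HISAT and GRCm38.p6, and a counting tool or annotation is not given in the sources used here. FPKM does not hold read numbers, so depth is unknown and intervals based on counts are left out. FPKM also depends on the transcript length assigned and on the library total, so abundant genes can shift all others.

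The 11103 genes that reached 1 FPKM in 3 or more samples entered limma 3.58.1 (R 4.3.3) as log2(FPKM + 1), with 2 groups, the trend and robust options of eBayes and Benjamini-Hochberg adjustment over all genes tested. A call is an adjusted p below 0.05. Fold changes are irradiated minus control, and the pseudocount understates those of low genes. The fit assumes equal variance, although the median SD was 0.30 in controls and 0.08 in irradiated libraries. Ratios were tested by exact permutation (scipy 1.17.1). Lengths and GC content of transcripts are those of GENCODE M21 (16424 genes); coordinates and promoters came from RefSeq GRCm38.p6. The procedure was run on simulated data with independent noise and, for each gene, 1 SD for both groups. That setting lacks the unequal spread, the gap of control 3 and the length trend, so it does not test the fit under them.

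The members and lists were chosen with earlier results of these data known. Named are the 7 members, Calr, the 2 called genes of each list with the smallest p, the 5 genes nearest to Cd47 in profile, and cell type markers; others were named after their values were seen. The values of 1 further called gene are not reported here. Alternatives were a pseudocount of 0.1, no filter, a filter at 5 FPKM, quantile normalization, trimmed-mean scaling, limma without trend and robust options, a variance for each group, the sample number as a block, and omission of each library; the length and GC correction (splines with 4 degrees of freedom) and the comparison with control 3 alone were chosen after seeing the data.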

Additional observations from a re-analysis of the deposited data

How the results depend on the processing

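Over 16 alternatives, Cd47 kept its direction in each and its call in 8. It was not called with the sample number as a replicate block (0.51, limma adjusted p = 0.105), after trimmed-mean scaling (0.31) or after the length and GC correction (0.23); leaving out 1 library gave 0.49 to 0.52. Qpctl kept its direction and passed in 4 (0.48 without trend and robust options, 0.55 after the length and GC correction, 0.52 with control 3 as the only control, and without control 3 within a leave-one-out range of 0.44 to 0.54). Leaving out 1 library gave 0.27 to 1.15 for Thbs1 and 0.33 to 0.99 for Lrp1, and control 3 as the only control reversed both (-0.40 and -0.23). Calr, at 0.00, turned positive after quantile normalization (0.47), after the length and GC correction (0.08), and on leaving out 1 library (range -0.12 to 0.11: 0.11 without control 1, 0.01 without control 3, 0.00 without irradiated library 2 or 3), without a call in any setting.

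Members called higher numbered 0 after trimmed-mean scaling and with the block, 2 without trend and robust options and with control 3 as the only control, and 0 to 4 on leaving out 1 library. Over all genes, those called higher and lower numbered 506 and 221 with the filter at 5 FPKM, 645 and 601 after quantile normalization, 669 and 477 after trimmed-mean scaling, 1336 and 489 with a variance for each group, 260 and 40 with the block, 1368 and 471 after the length and GC correction and 2514 and 1579 with control 3 as the only control, and ranged from 46 to 5067 and from 10 to 2571 on leaving out 1 library. Genes of the 13 lists called higher and lower numbered 9 and 3 after trimmed-mean scaling, 20 and 2 with a variance for each group, 6 and 0 with the block, 20 and 3 after the length and GC correction, 31 and 11 with control 3 as the only control, and 3 to 63 and 0 to 11 on leaving out 1 library. With the block, the calls of B2m, Hspa1b, Plscr3, Cx3cl1, Thbs3 and Plat were also lost (limma adjusted p of 0.0559, 0.0831, 0.0934, 0.055, 0.107 and 0.0809). The numbers of the samples are not shown to pair them, since deviations of same-numbered samples correlated at -0.115, 0.0203 and -0.159. With the other pseudocount or 1 library left out, the Cd47 to Calr ratio differed by 0.41 to 0.62 and the Qpctl to Qpct ratio by 0.44 to 0.51. In alternatives chosen after seeing the data, the Cd47 to Calr difference was 0.51 after trimmed-mean scaling, 0.10 after quantile normalization and 0.14 after the length and GC correction; Qpct was below the level for testing, so the other ratio has no such value. Depth is unknown, and no difference was detectable for Sirpa, Qpct and Cd24a, all at or below 0.69 FPKM.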
